A study of Homo sapiens with 6 samples.

Results

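CREM, its relatives CREB1 and ATF1, the coactivators CRTC2 and CRTC3, and the phosphodiesterases PDE4A, PDE4B and PDE4D form the cyclic AMP response module described here in a human B cell line. The members were taken by gene name, as all probe sets whose platform annotation gives exactly 1 gene symbol equal to a member. CREM had been noticed for its difference after LPS in these arrays and the others were chosen as its relatives, so every LPS difference of a member is a description and supports no inference. The rule found 30 of 54613 tested probe sets, for 7 of the 8 genes, and ATF1 had no probe set in the annotation used here.

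BL-2 is an established line from a Burkitt lymphoma, a tumour of germinal centre type B cells. The treated cells were BL-2 exposed for 6 h to lipopolysaccharide (LPS), an outer membrane component of Gram-negative bacteria, and the controls were BL-2 cells with no treatment. RNA from 3 LPS and 3 control samples was measured, each on 1 Affymetrix array, where a probe set is a group of short probes that reads 1 stretch of transcript. The labels do not say that the samples came from separate cultures, so the spread between them may be technical, and all come from 1 cell line.

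Cyclic AMP is made by adenylyl cyclases when hormones or mediators act on receptors coupled to stimulatory G proteins, and it releases the catalytic subunits of protein kinase A. These phosphorylate CREB1, CREM and ATF1, leucine zipper factors that bind as dimers to the cyclic AMP response element. CRTC coactivators join them on DNA once freed from salt-inducible kinases, and PDE4 enzymes end the signal by degrading cyclic AMP. CREM is unusual in the family because an internal promoter, itself inducible by cyclic AMP, gives short repressor forms known as ICER. In mice, Pde4b is required for the full production of TNF by monocytes and macrophages exposed to LPS.

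Start site sequences of the members were examined because CREM is the member whose probe sets stood higher after LPS and because it is known to have an internal promoter besides the one at its beginning. RefSeq's table for GRCh38.p14 held 31 windows for 7 members, each from 250 bases before to 50 after a start site, including 7 for CREM and 5 for PDE4A. CRTC2 had no window there, so its start sites were not examined. The motifs searched on both strands were the palindromic response element TGACGTCA, the variant TGATGTCA and the short motif TGACG, which is contained on each strand of TGACGTCA. TGACGTCA was present in 1.85% of all 35116 windows, TGATGTCA in 2.61% and TGACG in 24.6%. In the sequences below, capitals mark these letters or their reverse complement.
CREM upstream window, chr10:35126977-35127276 (+ strand): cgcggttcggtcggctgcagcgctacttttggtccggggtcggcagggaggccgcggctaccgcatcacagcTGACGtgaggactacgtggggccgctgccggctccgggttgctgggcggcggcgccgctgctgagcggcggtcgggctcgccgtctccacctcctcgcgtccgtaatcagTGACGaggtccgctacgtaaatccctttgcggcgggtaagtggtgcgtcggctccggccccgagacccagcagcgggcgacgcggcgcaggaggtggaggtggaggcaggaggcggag
CREM second downstream window, chr10:35194883-35195182 (+ strand): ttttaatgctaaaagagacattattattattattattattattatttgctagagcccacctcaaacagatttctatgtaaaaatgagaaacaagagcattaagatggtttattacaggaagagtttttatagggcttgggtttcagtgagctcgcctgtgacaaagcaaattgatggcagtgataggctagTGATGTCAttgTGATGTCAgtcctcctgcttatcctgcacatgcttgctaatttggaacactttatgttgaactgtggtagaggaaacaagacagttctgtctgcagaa
CREM last downstream window, chr10:35195652-35195951 (+ strand): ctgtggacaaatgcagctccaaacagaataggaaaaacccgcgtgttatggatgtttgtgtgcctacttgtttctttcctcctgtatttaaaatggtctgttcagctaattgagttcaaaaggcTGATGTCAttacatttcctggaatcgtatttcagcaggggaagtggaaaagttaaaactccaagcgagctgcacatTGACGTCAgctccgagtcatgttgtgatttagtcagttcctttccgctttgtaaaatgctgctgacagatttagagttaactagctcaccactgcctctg
PDE4A upstream window, chr19:10416523-10416822 (+ strand): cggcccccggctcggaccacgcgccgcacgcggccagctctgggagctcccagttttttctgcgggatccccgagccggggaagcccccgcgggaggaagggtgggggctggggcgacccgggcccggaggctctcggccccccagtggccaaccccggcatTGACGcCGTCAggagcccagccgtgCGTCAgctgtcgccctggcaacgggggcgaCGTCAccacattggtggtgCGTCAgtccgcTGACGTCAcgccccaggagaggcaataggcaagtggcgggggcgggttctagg
The CREM upstream window shown is named against the downstream windows and is the last along the strand of the 3 at the beginning of the gene. It had 2 copies of TGACG and no complete element, and the others at the beginning had none of the motifs. At least 2 copies of TGACG were found in 6.02% of all windows. Further along the gene, the first downstream window, not shown, had 1 TGATGTCA. The second downstream window had 2 copies of TGATGTCA, and at least 2 copies were found in 0.0626% of all windows. The last downstream window had 1 TGATGTCA and 1 TGACGTCA, and the TGACGTCA began at -50 from the start site. A window that overlaps it covered the same letters, and from the start site of that window the TGACGTCA began at 2, just downstream. PDE4A had 1 TGACGTCA, at -3 from its upstream start site, and 5 further copies of TGACG in that window. Among the other members, CREB1 and ATF1 windows had none of these motifs, CRTC3 had a TGACG in its single window, PDE4B a TGATGTCA in 1 of 6 windows, and PDE4D a TGACG in 1 of 8. The match is to letters only, and the array values carry no positions that would tie a probe set to a start site.

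The deposited values were taken as log2 intensities because they lay between 5.46 and 14.81, with array medians from 6.42 to 6.47. Levels are therefore given on each probe set's own log2 scale. Where probe sets are ranked by brightness, called dim or set side by side as marker lists, intensity need not follow the amount of RNA. No marker passed in the fit without a block. The 5 measured B cell markers had mean levels of 8.85 to 12.99 in LPS and 9.05 to 13.05 in control cells. The 5 measured markers of germinal centre or Burkitt cells had 9.48 to 12.64 in LPS and 9.81 to 12.70 in control cells. In these lists PAX5 was higher after LPS by 0.31, with overlapping groups. Groups also overlapped for CD79B (-0.18), MS4A1 (-0.07), MYC (-0.06) and TCL1A (-0.03). LPS values lay below all controls for CD79A (-0.38), CD38 (-0.33), MME (-0.32), BCL6 (-0.31) and CD22 (-0.20). Of these, CD38, CD79A and BCL6 passed with array set as a block (adjusted p = 0.0095, 0.0103 and 0.0467 by limma). Over all 19775 genes, by their brightest probe sets, 1542 lay below all controls and 2.02% passed with that block in either direction. Markers of monocytes (5), T and NK cells (5), and erythroid cells and platelets (3) lay at 5.87 to 6.68 in LPS and 5.83 to 6.73 in control cells. The summed level of the monocyte list was 8.51 to 8.54 on LPS arrays and 8.51 to 8.55 on control arrays. By the mean level of 18 added hybridisation control probe sets the arrays fell into 2 sets, with LPS 1, LPS 2 and control 1 in set A and LPS 3, control 2 and control 3 in set B. Values within each set are given where a result touches on it.

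CREM, an activator or repressor of cyclic AMP responsive genes depending on its isoform, was higher in LPS than in control cells by 5 of its 6 probe sets. Its brightest probe set read 9.20, 9.28 and 8.86 on LPS arrays 1 to 3, against 8.60, 8.13 and 8.23 on control arrays 1 to 3. The lowest LPS value, on LPS 3, lay above the highest control value, on control 1. The mean was 9.11 ± 0.22 in LPS and 8.32 ± 0.25 in control cells (SD, n = 3 each), a difference of 0.80 (SE 0.13) on the log2 scale or 1.74-fold. Ranked from the highest difference down, it was number 7 of 54613. It was the 1 of 30 member probe sets past the threshold (adjusted p under 0.05 by limma, fitted across all probe sets), where 0.264% of all tested passed (0.13% higher and 0.134% lower), and nothing is read from that share because this contrast led to the choice of CREM. The call depended on the arrays used: it was lost without LPS 1, LPS 2, control 2 or control 3, when the difference was 0.75, 0.71, 0.70 and 0.75. On the same arrays 5 of the 10 measured B cell and germinal centre markers read lower after LPS without overlap, as did 1542 of all 19775 genes. Of the 10, PAX5 was higher by 0.31, with overlapping groups. The part of the 10 markers in the CREM difference was not tested. In bulk RNA, more RNA per cell and more cells with the transcript cannot be told apart.

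The CREM probe sets are named here by brightness, from the brightest to the sixth. The next largest difference was that of the third, at 0.33 (SE 0.076), which read 8.55, 8.58 and 8.67 on the LPS arrays, against 8.30, 8.24 and 8.28 on the control arrays. The groups did not overlap, and the spread within each was smaller than for the brightest. It did not pass the threshold, but did so with array set as a block. The second differed by 0.22 (SE 0.088), the fourth by 0.21 (SE 0.082) and the fifth by 0.23 (SE 0.063).

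The groups overlapped for none of these 5 probe sets. For the second and the fourth the gap was narrow. The second read 8.78, 8.76 and 8.66 on LPS arrays and 8.53, 8.65 and 8.38 on control arrays, and the fourth 8.05, 8.16 and 8.23 on LPS arrays and 7.83, 8.05 and 7.93 on control arrays. LPS 3 was barely above control 2 for the second, and LPS 1 barely above control 2 for the fourth. The fifth read 6.96, 7.02 and 7.02 on LPS arrays and 6.73, 6.86 and 6.72 on control arrays. Non-overlap in either direction was found for 13.4% of all probe sets, with LPS higher for 7% and lower for 6.38%, and nothing is read from the members' count against it. Probe sets of 1 gene read the same RNA on the same arrays, so the 5 are not independent observations. The sixth was dim and level, at 6.33, 6.26 and 6.26 on LPS arrays and 6.26, 6.29 and 6.29 on control arrays. The mean over the 6 CREM probe sets differed by 0.30.

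**Figure D1:**
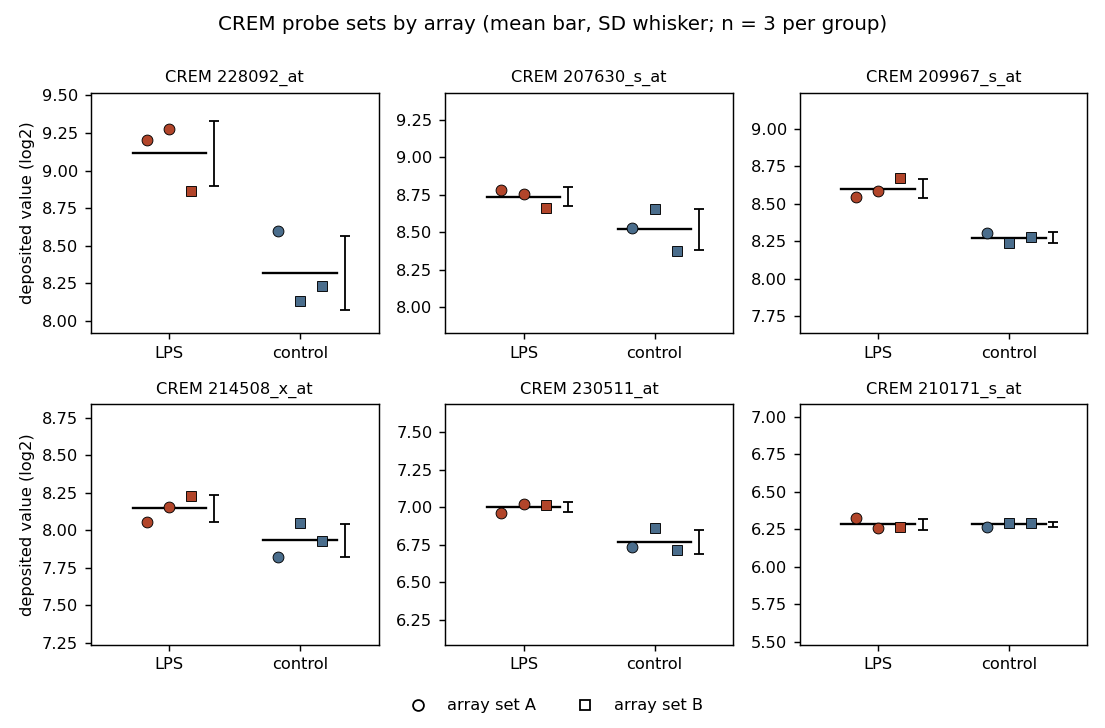
Deposited log2 values (vertical axis) of the 6 CREM probe sets on each of 3 LPS and 3 control arrays, with the group mean as a line, the SD as a whisker and array sets A and B as circles and squares. Panels carry the array's probe set identifiers and run from the brightest to the dimmest. LPS and control points do not overlap except for the dimmest probe set, and the brightest shows the widest separation, 9.11 against 8.32 on average.

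The LPS difference of the brightest CREM probe set exceeded the mean difference of the other 5, which was 0.20, by 0.60. This sets the probe set with the highest difference against the rest and is a description.

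The level of the brightest CREM probe set also moved with the array set. With LPS in the fit, set B minus set A was -0.40 for it, whereas this ran from -0.06 to 0.14 for the other CREM probe sets. Its LPS difference was 0.64 among set A arrays and 0.68 among set B arrays, and the fit with array set as a block gave 0.66. The third gave 0.26 among set A arrays, 0.41 among set B arrays and 0.34 in the blocked fit. Set A has 1 control array and set B 1 LPS array, so each value within a set rests on a single array on one side.

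CREB1, the constitutive partner of CREM that activates transcription once phosphorylated, showed no probe set with separated groups. Its brightest read 9.47, 9.39 and 9.41 on the LPS arrays and 9.46, 9.42 and 9.48 on the control arrays. The difference was -0.03 (SE 0.082, 95% interval from -0.21 to 0.14), smaller than the range of either group. Across its 7 probe sets, all brighter than the median probe set, differences ran from -0.07 to 0.14, with 4 above 0 and 3 below. The highest, 0.14, came from its dimmest probe set, with 0.07 among set A arrays and 0.05 among set B arrays.

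The CRTC coactivators, which lend CREB its full activity, were measured by 3 probe sets. CRTC2 had 1, at 7.85, 7.85 and 7.84 on LPS arrays and 7.95, 7.77 and 7.80 on control arrays. All LPS values lay inside the control range. The difference was 0.01 (SE 0.074, 95% interval from -0.15 to 0.17), and its sign turned with quantile normalisation, at -0.014. It was -0.10 among set A arrays and 0.06 among set B arrays. CRTC3 by its brighter probe set read 8.19, 8.27 and 8.05 on LPS arrays, against 8.08, 8.04 and 8.09 on control arrays. LPS 1 and LPS 2 stood above all controls and LPS 3 did not, which left a difference of 0.10 (SE 0.080, 95% interval from -0.07 to 0.27). Among set A arrays it was 0.15, and among set B arrays -0.02. The dim second CRTC3 probe set differed by 0.01.

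Among the phosphodiesterases, PDE4B is the isoform linked to LPS signalling in mouse myeloid cells. Its brightest probe set read 8.60, 8.49 and 8.57 on LPS arrays and 8.62, 8.48 and 8.39 on control arrays. The groups overlapped, with control 1 the highest of all 6. The difference was 0.06 (SE 0.084, 95% interval from -0.12 to 0.24), with -0.08 among set A arrays and 0.14 among set B arrays. Its second probe set differed by 0.05 (SE 0.094), and the dimmest by -0.01.

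PDE4A, an isoform expressed in many tissues, had 5 probe sets between -0.09 and 0.11, of which 4 lay below 0. The brightest read 7.45, 7.40 and 7.46 on LPS arrays and 7.56, 7.38 and 7.43 on control arrays. Every LPS value fell inside the control range, at a difference of -0.02 (SE 0.071, 95% interval from -0.17 to 0.13). Control 1 was the highest array for the 3 brightest PDE4A probe sets, which differed by -0.14, -0.26 and -0.15 among set A arrays, where it is the single control. Among set B arrays they differed by 0.06, 0.06 and -0.19.

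PDE4D, which also degrades cyclic AMP, was dim throughout: its 6 probe sets all had mean levels below the median of the tested probe sets. Its brightest read 6.33, 6.34 and 6.41 on LPS arrays and 6.25, 6.41 and 6.31 on control arrays. The groups overlapped, at a difference of 0.04 (SE 0.058, 95% interval from -0.09 to 0.16). The 6 differences ran from -0.03 to 0.04. No detection calls were used, so it is not known which of these probe sets read signal above background.

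**Figure D2:**
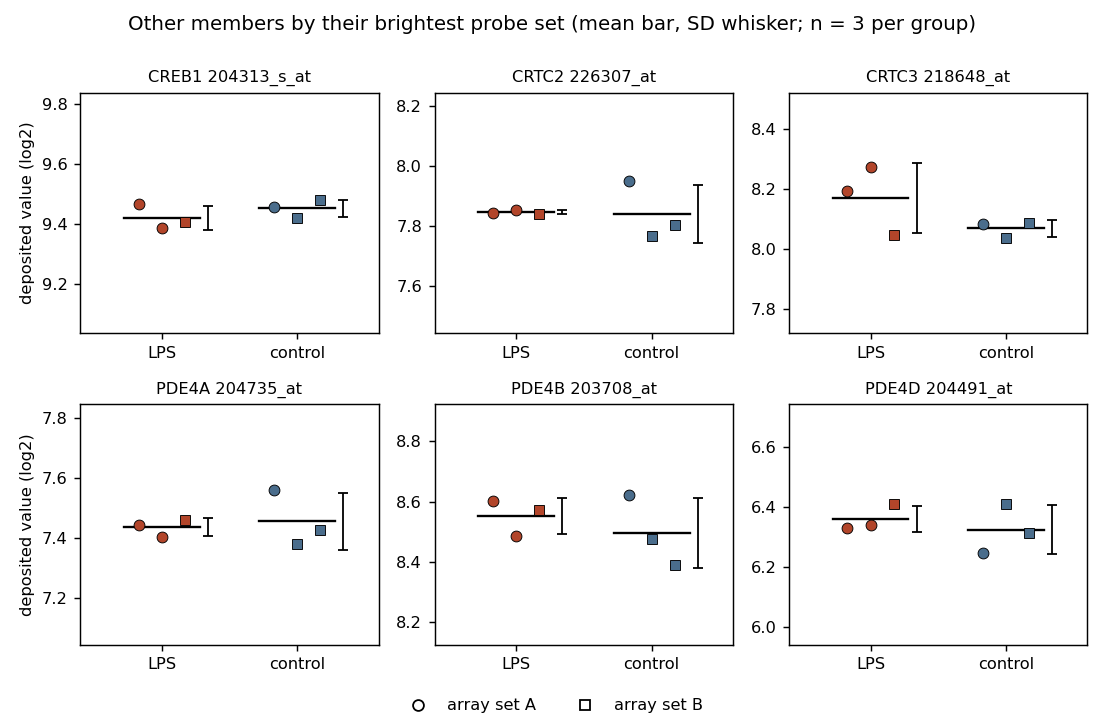
Deposited log2 values (vertical axis) of the brightest probe set of CREB1, CRTC2, CRTC3, PDE4A, PDE4B and PDE4D on each of 3 LPS and 3 control arrays, with group mean (line), SD (whisker) and array set (symbol). In all 6 panels the LPS and control points overlap.

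Over all 30 member probe sets the median difference was 0.0065, against 0.0029 over all tested probe sets. There were 17 above 0 and 13 below. The 5 with separated groups were those of CREM. Of the members, 20 probe sets were brighter than the median tested probe set. Outside CREM the differences lay between -0.09 and 0.14, and their size can be read against a median standard error of 0.078 over the 30. With array set as a block, 2 member probe sets passed, the brightest and the third of CREM, where 1.34% of all did.

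**Figure D3:**
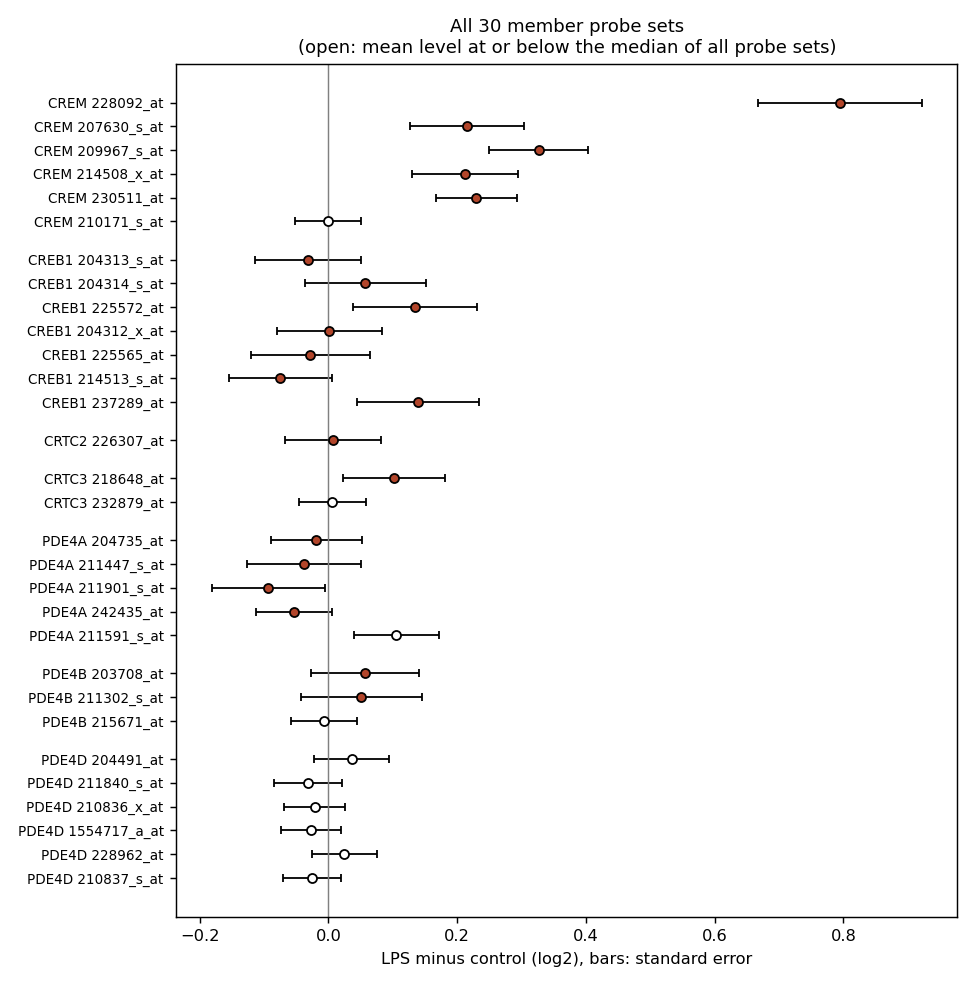
LPS minus control difference (horizontal axis, log2) with its standard error for each of the 30 member probe sets, grouped by gene. Open points have a mean level at or below the median of all tested probe sets; CREM probe sets reach 0.80, and the other genes lie between -0.09 and 0.14.

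The wider cyclic AMP pathway was examined through 6 lists, compiled from general knowledge and holding 117 genes, and 109 of these were measured. By their brightest probe sets 0 rose and 1 fell in the limma fit, and 18 of the 109 had an unadjusted p under 0.05, as did 1890 of all 19775 genes. The same background holds for the count of each list. Of all genes 0.389% passed, 0.182% higher and 0.207% lower. The groups did not overlap for 16 of the 109, against 15.7% of all genes. The median difference of the 109 was 0.00229, against 0.00161 over all genes. With array set as a block 5 passed, against 2.02% of all genes: RPS6KA1, higher after LPS, and PRKACB, CREB3L4, CREB5 and JUND, all lower.

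The gene that fell was PRKACB, the beta catalytic subunit of protein kinase A, which phosphorylates CREB factors. It read 10.56, 10.35 and 10.44 on LPS arrays, against 10.93, 10.99 and 10.93 on control arrays. All LPS values lay below all controls, at a difference of -0.50 (SE 0.092, adjusted p = 0.0396 by limma, n = 3 per group). Control cells thus had 1.42 times the LPS level. The difference was -0.48 among set A arrays and -0.52 among set B arrays. The other PRKACB probe sets differed by -0.36 (adjusted p = 0.318) and by -0.13 (adjusted p = 0.692). For the one at -0.36 the groups did not overlap, and it passed with array set as a block (adjusted p = 0.0021 by limma). Groups overlapped for the one at -0.13. The call of the brightest probe set rests on few arrays: the adjusted p was 0.109 without LPS 1, 0.264 without LPS 2, 0.0715 without LPS 3, 0.204 without control 2 and 0.231 without control 3, and 0.0505 with median centring. The other 19 genes in the list of protein kinase A subunits, inhibitors and anchors did not pass, with a median over the 20 of 0.04. That list also held RAPGEF3, which is none of these.

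Coactivators, kinases and related factors numbered 25, of which 0 passed by their brightest probe set and 8 had an unadjusted p under 0.05, with a median of 0.00229 over the list. CREB3L4, a membrane-bound relative of CREB, was at -0.43 (adjusted p = 0.0531), CREB5 at -0.34 (adjusted p = 0.159) and RPS6KA1, a kinase of the MAP kinase pathway, at 0.53 (adjusted p = 0.191). CREB3L4 differed by -0.56 among set A arrays and -0.27 among set B arrays, and CREB5 by -0.12 and -0.57. RPS6KA1 differed by 0.40 among set A arrays and 0.37 among set B arrays, and its groups overlapped. CREBZF, a leucine zipper factor, was noticed after its values were seen: its second probe set rose by 0.57 (adjusted p = 0.00846), and its brightest was at 0.39 (adjusted p = 0.195). That call was lost without LPS 1, LPS 2 or control 3, at adjusted p of 0.0569, 0.079 and 0.0676. The other 5 CREBZF probe sets differed by -0.0017 to 0.25 and did not pass.

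Upstream of the kinase, 0 of 11 receptors and G proteins passed (median -0.01, 2 with an unadjusted p under 0.05). The prostaglandin receptor PTGER4 was at 0.26, with -0.04 among set A arrays and 0.38 among set B arrays, the proton-sensing receptor GPR65 at -0.18 and GNAS, the stimulatory G protein, at -0.11. Of the 10 adenylyl cyclases 0 passed (median 0.05, 0 with an unadjusted p under 0.05), with ADCY3 at 0.27, ADCY6 at 0.11 and ADCY5 at 0.11. Other phosphodiesterases, listed together with the phosphodiesterase-interacting protein PDE4DIP, ran from -0.10 to 0.04 over 12 genes by their brightest probe sets. Of these 0 passed and 0 had an unadjusted p under 0.05. The 3 with the smallest unadjusted p were PDE3B at -0.10, PDE8B at -0.04 and PDE11A at 0.03. Some of their dimmer probe sets had groups that did not overlap, though none passed: 1 of PDE3B at -0.26 (adjusted p = 0.246), 2 of PDE8B at 0.12 and 0.13, and 1 of PDE11A at -0.11. Those of PDE8B and PDE11A had the opposite sign to the brightest probe set, and the PDE3B one passed with array set as a block (adjusted p = 0.0437).

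Genes known as CREB targets in other cells did not pass in any of 31 measured cases, and 5 had an unadjusted p under 0.05. Their median was 0.00223, with 17 above 0 and 14 below. Only 18 of the 31 had a mean level above the median tested probe set. No detection calls were used, so a dim target that did not pass may not have been read above background. NR4A2, a nuclear receptor induced by cyclic AMP, was at -0.15 (adjusted p = 0.403), BDNF at 0.15 (adjusted p = 0.508) and RGS2, a regulator of G protein signalling, at -0.32 (adjusted p = 0.551). NR4A2 was dim, at mean levels of 5.80 in LPS and 5.95 in control cells, where the median tested probe set lay at 6.45. For RGS2 the set A arrays gave -0.70 and the set B arrays -0.10. RGS1, named after its values were seen, had the lowest difference, -0.59 (adjusted p = 0.617). It read 6.12, 6.18 and 6.32 on LPS arrays and 6.37, 7.78 and 6.24 on control arrays, so control 2 alone stood apart.

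**Figure D4:**
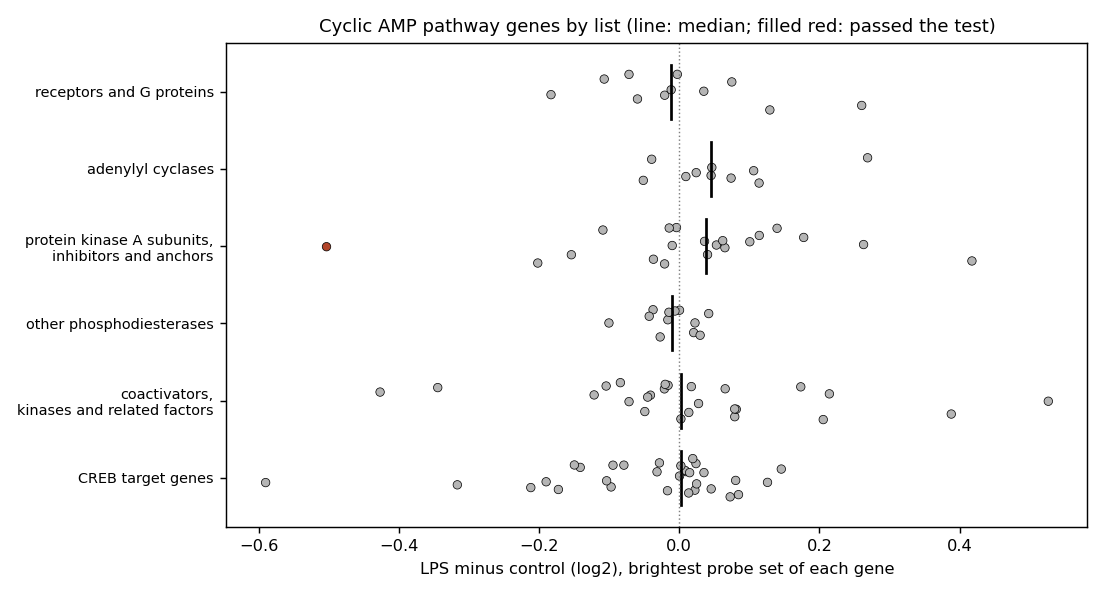
LPS minus control difference (horizontal axis, log2) of the 109 measured genes of the cyclic AMP pathway by list, each by its brightest probe set, with the list median as a line. PRKACB at -0.50 is the single point that passed the test, and the list medians lie between -0.01 and 0.05.

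Genes with a pattern most like that of the brightest CREM probe set were found by Pearson's r over the 6 arrays among 844 genes brighter than the median with an SD of at least 0.2. The closest were HLA-G (r = 0.996), ANKRD33B (r = 0.994), AHCTF1 (r = 0.993), AIRIM (r = 0.992) and NEIL2 (r = 0.988). All 5 had LPS values above all controls, with differences of 0.39 for HLA-G, 0.56 for ANKRD33B, 0.33 for AHCTF1, 0.41 for AIRIM and 0.73 for NEIL2. Set B minus set A, with LPS in the fit, was below 0 for all 5, from -0.38 to -0.15. The 5 were picked for following a CREM probe set that was itself higher after LPS and lower in set B. Their higher LPS values and lower set B values thus largely follow from the choice and are a description. With 6 arrays high values are common, and 109 of the 844 had r above 0.9. These arrays share the LPS contrast and the array sets, and HLA-G probe sets can read other HLA transcripts.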

How the data were processed

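RNA of BL-2 cells was labelled with biotin by in vitro transcription, per the labels' protocols. The authors deposited 1 value per probe set and array, taken as log2 from the range of the values; the background correction, summary and normalisation are not given in the sources used here. Gene names came from the platform annotation, matched through gene identifiers to RefSeq GRCh38.p14 (41037 of 41091 single-symbol probe sets). After leaving out 62 Affymetrix control probe sets, 54613 were fitted in R 4.3.3 with limma 3.58.1 (group only, empirical Bayes with intensity trend, two-sided, Benjamini-Hochberg over all, threshold 0.05). The steps were tested on simulated data. A gene was represented by its brightest probe set, the highest mean over 6 arrays. Array sets were parted at the widest gap in mean hybridisation control level, 0.22 against 0.081 for the next. Array number limits the precision; intervals cover 95%.

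The members and lists were chosen with earlier results of these data known. Named were all members, each with its brightest probe set and any other that passed or differed by at least 0.3; in each pathway list the genes that passed or else the 3 with the smallest unadjusted p; and the 5 genes most like CREM. Alternatives covered blocks, normalisation, filters, array weights, the threshold, probe set choice and leaving out each array.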

Additional observations from a re-analysis of the deposited data

How the results depend on the processing

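The count of probe sets passing, 144, was 498 with the replicate number as a block, 734 with array set as a block, 292 with quantile normalisation, 309 with array weights, 265 at an adjusted p under 0.1 and 82 without probe sets marked _x_at or _s_at. Leaving out 1 array gave 10 to 374. The member count of 1 was 2 with the replicate block, with array set as a block and without the intensity trend, and 0 to 1 with 1 array left out. The pathway count of 1 was 3, 5, 2, 3, 2 and 2 under the replicate block, array set block, quantile normalisation, array weights, higher threshold and without marked probe sets, and 0 to 5 with 1 array left out. The cause of these shifts was not tested. The labels number the replicates without saying whether LPS and control samples are paired. Same-numbered LPS and control arrays deviated together with correlations of 0.44, -0.04 and 0.23. LPS 1 shares an array set with control 1, and LPS 3 with control 3, but LPS 2 does not share one with control 2. By array set, LPS and control arrays of the same set ran from 0.14 to 0.44, and those of different sets from -0.47 to -0.04. Arrays with unlike numbers ran from -0.47 to 0.32, and so few arrays cannot settle whether the numbers pair the samples. CREM by its brightest probe set kept its direction under all 18 alternatives, at 0.70 to 0.93 with 1 array left out, and lost its call in 4 of them. Sign changes over all 6 arrays, in differences that did not pass, were CREB1 at 0.13 without marked probe sets and 0.028 by the mean over its probe sets, CRTC2 at -0.022 with array set as a block and -0.014 with quantile normalisation, and PDE4D at -0.0076 by the mean over its probe sets. With 1 array left out CRTC2 ran from -0.030 to 0.062, PDE4A from -0.057 to 0.034 and PDE4D from -0.0019 to 0.080. Within single array sets the sign also changed for CRTC2 (-0.10 in set A), PDE4B (-0.077 in set A), CRTC3 (-0.016 in set B) and PDE4A (0.058 in set B). PDE4D has no value under the filter on dim probe sets.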
